A study of Drosophila melanogaster with 6 samples.

Results

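Peptidoglycan recognition proteins (PGRPs) and antimicrobial peptides form the sensing and killing arms of humoral immunity in Drosophila melanogaster. They were examined here in whole embryos that carry mutant alleles of ribbon (rib), whose product is a BTB-domain protein of the nucleus. The set was drawn up as a list of 10 gene symbols, with earlier results of these data known, and a gene entered when the array annotation gave a probe set exactly that symbol. Of the 10 genes, 7 were found, each with 1 probe set, among 11982 genes with a single symbol. They were PGRP-LB, PGRP-LE, PGRP-LF, PGRP-SB1, Mtk, Drs and DptB. The other 3, PGRP-SA, PGRP-SD and AttC, had no probe set with a single symbol and were not analysed here. No filter on low values was applied, so all 7 were tested.

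RNA from 3 wild-type (Oregon R) and 3 rib1/ribP7 collections of embryos at stages 11 to 16 was hybridised to Affymetrix Drosophila Genome 2.0 arrays. Oregon R is a laboratory wild-type strain, and the labels give the mutants as carrying the alleles rib1 and ribP7 over each other, without stating the strain background of the mutants or what each allele does to the transcript. Embryos had been collected for 8 h, aged for 11 h and isolated with an automated embryo sorter. The series description names the collections as independent. Genotype and any difference in strain background or in age mix cannot be told apart in this design.

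The PGRP family binds the bacterial cell wall polymer peptidoglycan. Some members are receptors of the Imd and Toll pathways, which act through the NF-κB factors Rel, Dif and dl, whereas others are amidases that cleave peptidoglycan and so lower the signal. The pathways are best known for inducing antimicrobial peptides in the fat body and at epithelial surfaces after infection. The labels give no infection or challenge here, so the values are levels in embryos kept without a stated one.

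Expression is given as log2 units after RMA, a normalization that combines the probes of a probe set and makes arrays alike in their distribution. Array medians lay between 5.51 and 5.56, and signal near that level may hold mostly background. The level of 1 probe set was not set against that of another, since probes differ in how brightly they bind. Wild-type arrays differed more among themselves than mutant arrays did: over probe sets, the difference between 2 arrays had an SD of 0.402 to 0.629 within wild type and of 0.209 to 0.222 within the mutants. The only probe set of rib itself was higher in the mutants, at 13.86 against 13.06 (limma adjusted p = 0.0390), so it does not check the labels as a loss of transcript would. Wild-type replicates 1 and 3 lay farthest apart. The mean level of 12 genes of late embryonic tissues (among them elav of neurons, repo of glia and the muscle gene Mlp84B) was 8.49, 7.79 and 6.96 in wild-type replicates 1, 2 and 3 and 8.39 to 8.70 in the mutants.

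Differences are rib mutant minus wild type from limma, fitted over all 18769 probe sets with Benjamini-Hochberg adjustment. Over these, 5.54% of probe sets were higher and 3.32% lower in the mutants at an adjusted p under 0.05, 8.87% in all. Against that background 1 of the 7 genes rose (PGRP-LB) and 1 fell (Mtk), and 4 of 7 were under an unadjusted p of 0.05, against 25.5% of all probe sets. By the submitters' rule of 1.5-fold at p under 0.05, taken here from limma's unadjusted p, 3 of 7 passed (PGRP-LB, PGRP-LE and Mtk), against 13.0% of all probe sets. The median difference of the 7 was −0.18, beside −0.06 over all genes. In 5 of the 7 the arrays of the 2 genotypes did not overlap, which was also so for 35.3% of all probe sets. With so few genes these counts are a description and show nothing particular to the set.

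**Figure D1:**
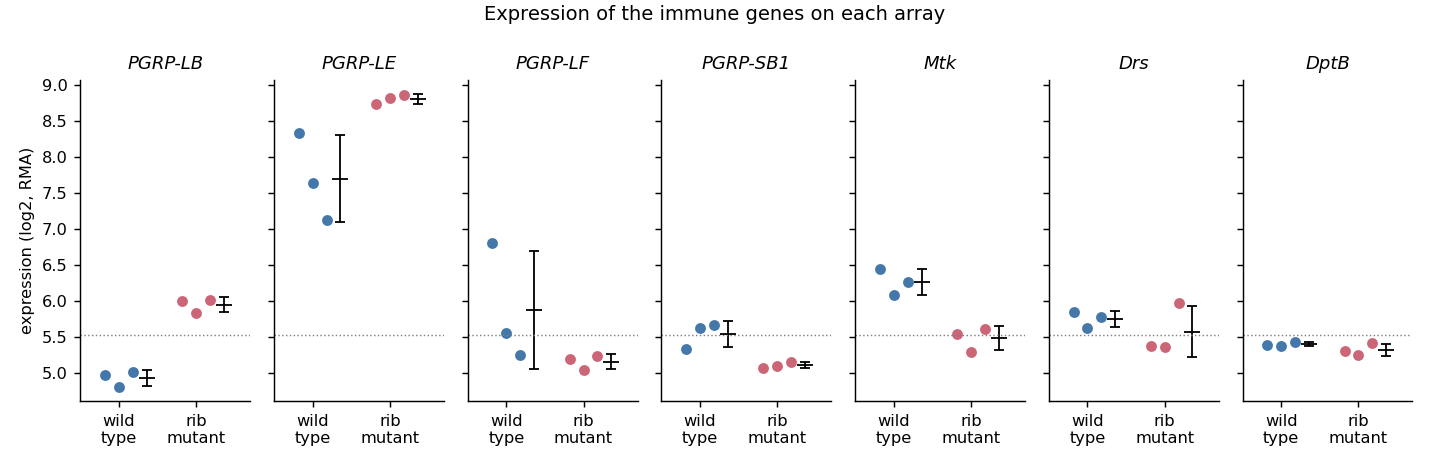
Expression (log2, RMA; vertical axis) of the 7 genes on each of the 3 wild-type (blue) and 3 rib mutant (red) arrays, with the mean and SD of each group in black and the mean array median as a dotted line. PGRP-LB lies about 1 unit higher on every mutant array, Mtk lies lower on every mutant array, and wild-type arrays spread widely for PGRP-LE and PGRP-LF.

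Among the receptors, PGRP-LE was measured well above the array median in either genotype. It encodes a sensor of peptidoglycan fragments that acts inside cells and activates the Imd pathway. Its values were 8.33, 7.64 and 7.12 in wild-type replicates 1, 2 and 3, and 8.73, 8.82 and 8.86 in the mutants. The genotypes did not overlap, with the mutants higher, and the wild-type arrays spread over more than 1 unit while the mutant arrays lay close together. Means were 7.70 ± 0.61 and 8.80 ± 0.06 (SD, n = 3 each), a difference of 1.11 (SE 0.29, 95% interval 0.40 to 1.81), or 2.15-fold. This missed the threshold, with limma adjusted p = 0.0729 (unadjusted p = 0.00850).

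The size of the PGRP-LE difference depended on the wild-type array. Between arrays with the same replicate number it was 0.40, 1.18 and 1.74 for replicates 1, 2 and 3. Without wild-type replicate 1 the difference was 1.42 and passed the limma test (adjusted p = 0.00422), whereas without wild-type replicate 3 it was 0.82 (adjusted p = 0.0849). The wild-type order of PGRP-LE, highest in replicate 1 and lowest in replicate 3, was also that of the late tissue genes above. The mean levels of the trachea, haemocyte and salivary gland marker lists shared this order, whereas those of fat body and midgut did not. Within the haemocyte list the order was not general. In wild-type replicates 1, 2 and 3, Col4a1 (9.75, 8.99 and 6.99) and NimC4 (11.38, 11.22 and 11.08) had it. The defining haemocyte gene Hml had the reverse order (5.02, 5.12 and 5.29), as did He and eater, all below the array median. The mean level of 16 tracheal genes was 9.34, 8.84 and 7.65 in wild type and 8.75 to 9.03 in the mutants. In wild type the haemocyte list was at 8.18, 7.98 and 7.23 and the salivary gland list at 10.04, 9.79 and 8.99. In the mutants they were at 7.93 to 8.09 and 8.85 to 9.20. The part of this spread in the PGRP-LE difference was not tested. In RNA of whole embryos, fewer cells of a type and less RNA per cell cannot be told apart.

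PGRP-LF encodes a membrane protein of the same family that binds the receptor PGRP-LC and holds the Imd pathway down. It was 6.81, 5.56 and 5.25 in wild-type replicates 1, 2 and 3 and 5.19, 5.04 and 5.24 in the mutants. Wild-type replicate 1 stood well above the other 5 arrays, and the lowest wild-type array barely cleared the highest mutant array. The difference of −0.72 (SE 0.39, 95% interval −1.67 to 0.24) did not pass (limma adjusted p = 0.304), and without wild-type replicate 1 it shrank to −0.25 (adjusted p = 0.205). That array was also the highest of the 6 in the tracheal, haemocyte, salivary gland and midgut lists. In the late tissue and fat body lists it was not. In the mutants PGRP-LF lay 0.36 units below the array median.

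PGRP-LB encodes an amidase that digests the type of peptidoglycan seen by the Imd pathway and so limits the response. It measured 4.98, 4.81 and 5.01 in wild type and 6.0, 5.83 and 6.02 in the mutants. Every mutant value was above every wild-type value, and the gap between the genotypes was far wider than the spread within either. Means were 4.93 ± 0.11 and 5.95 ± 0.10 (SD, n = 3 each), a rise of 1.02 (SE 0.10, 95% interval 0.78 to 1.25), or 2.02-fold, with limma adjusted p = 0.00257. The difference between arrays of the same number was 1.02, 1.02 and 1.01, in contrast to the spread of the PGRP-LE values. The rise passed the limma test without any one array, at 0.95 to 1.07, and in each of the 14 alternative settings run (adjusted p 0.000318 to 0.0251).

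The wild-type level of PGRP-LB lay 0.61 units below the mean array median and the mutant level 0.43 above it, a range in which background can shrink a fold. RefSeq lists 6 transcripts for the gene, and which of them the probe set reads is not given in the sources used here.

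PGRP-SB1, another secreted amidase of this family, was 5.33, 5.62 and 5.66 in wild type and 5.07, 5.10 and 5.16 in the mutants. The groups did not overlap, but the difference of −0.43 (SE 0.11, 95% interval −0.69 to −0.16) missed the threshold with limma adjusted p = 0.0672. In the fit with the replicate block it passed narrowly (limma adjusted p = 0.0494), a setting in which 14.6% of all probe sets passed. The mutant mean lay 0.41 units below the array median. With arrays scaled on hybridization controls the difference was −0.05 (limma adjusted p = 0.675).

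**Figure D2:**
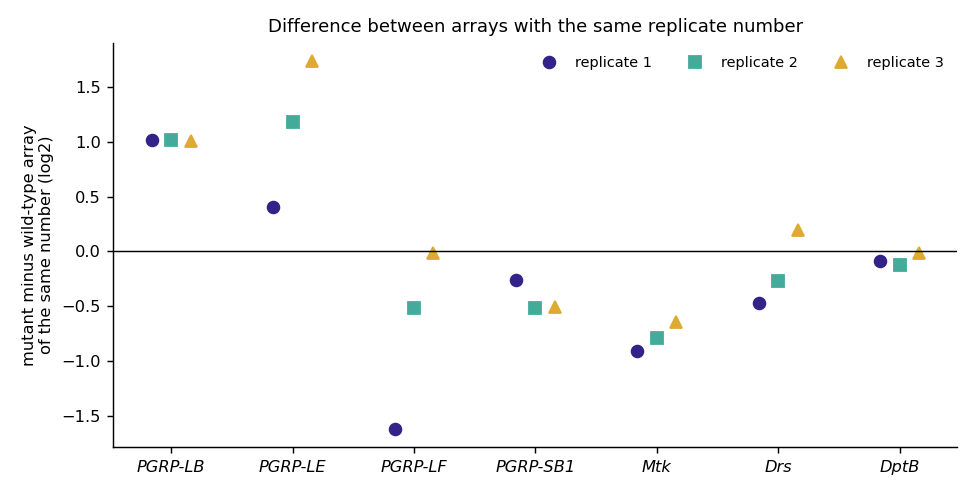
Difference (log2; vertical axis) between the mutant and the wild-type array that carry the same replicate number, for each of the 7 genes, with a symbol per replicate number. The 3 PGRP-LB values lie on top of each other at 1.01 to 1.02, whereas those of PGRP-LE run from 0.40 to 1.74 and those of PGRP-LF from −1.62 to −0.01.

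Of the 3 antimicrobial peptide genes, Mtk, which encodes the proline-rich peptide metchnikowin, was lower in the mutants. Its values were 6.45, 6.08 and 6.26 in wild type and 5.54, 5.29 and 5.61 in the mutants. Every mutant array lay below every wild-type array. Means were 6.26 ± 0.18 and 5.48 ± 0.17 (SD, n = 3 each), and the level fell by 0.78 (SE 0.13, 95% interval −1.10 to −0.46), or 1.72-fold, with limma adjusted p = 0.0202. The same-number differences were −0.91, −0.79 and −0.65.

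The Mtk call was less firm than that of PGRP-LB. It was lost without mutant replicate 1, 2 or 3 (limma adjusted p = 0.0803, 0.0788 and 0.0614), each time with a difference of −0.85 to −0.69. It was also lost with arrays scaled on hybridization controls, where the difference was −0.40 (adjusted p = 0.116). The mutant level of Mtk was 0.04 units below the array median, where little of the signal may be transcript.

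Drs, which encodes the antifungal peptide drosomycin, did not differ beyond its spread. It was 5.84, 5.62 and 5.78 in wild type and 5.37, 5.36 and 5.98 in the mutants. Mutant replicate 3 was the highest of the 6 arrays while the other mutant arrays were the lowest, so the groups overlapped. The difference was −0.18 (SE 0.18, 95% interval −0.63 to 0.27; limma adjusted p = 0.558). Its size rested on single arrays: it was −0.38 without mutant replicate 3 (adjusted p = 0.162), and −0.08 and −0.07 without mutant replicates 1 and 2 (adjusted p = 0.853 and 0.859).

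DptB, for the antibacterial peptide diptericin B, was nearly level on all arrays, at 5.39, 5.38 and 5.43 in wild type and 5.30, 5.25 and 5.41 in the mutants. The groups overlapped, and the difference was −0.08 (SE 0.08, 95% interval −0.26 to 0.11; limma adjusted p = 0.555). The interval holds no fall of more than 0.26 units and no rise of more than 0.11, but group means of 0.14 and 0.20 below the array median leave little signal in which a change could show. The signs of the Drs and DptB differences turned under hybridization control scaling, which moved the median of all probe sets from −0.07 to 0.31.

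**Figure D3:**
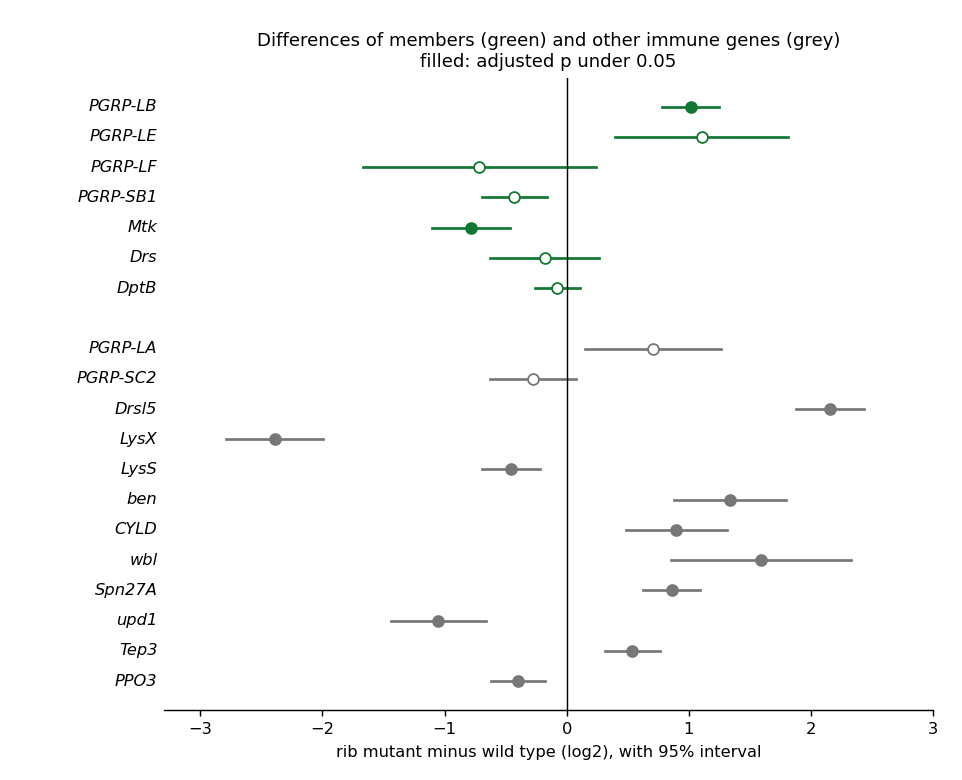
Mutant minus wild-type difference (log2; horizontal axis) with its 95% interval from limma for the 7 genes (green) and for other genes taken from the immune gene lists (grey). Filled points passed an adjusted p of 0.05. PGRP-LB and Mtk passed on opposite sides of 0, and Drsl5 and LysX moved by more than 2 units.

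Other genes of immune pathways were read from 7 gene lists with 108 measured genes, using the brightest probe set of each gene. Some of these genes have roles outside immunity, such as wbl of the Toll list, which acts in patterning of the egg. The counts thus describe the lists and not immunity alone. Of these, 8 rose and 4 fell, 12 in all (9 and 8 with the replicate block); of all 11982 genes 839 rose and 509 fell (4.25%), which makes 11.3%. The median difference was −0.06, the same as over all genes. Only 3 of the 12 (Drsl5, LysX and Spn27A) passed the limma test without any one array. The other 9 lost the call without at least 1.

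Other PGRP genes gave 3 measured members and no call (limma; 1 was under an unadjusted p of 0.05). PGRP-LA, an Imd-linked gene of the same family, was 6.03, 5.32 and 5.17 in wild type and 6.29, 6.08 and 6.27 in the mutants. Like PGRP-LE it was highest in replicate 1 among the wild-type arrays, and its groups did not overlap. The difference was 0.71 (SE 0.23, limma adjusted p = 0.118), and without wild-type replicate 1 it was 0.97 (adjusted p = 0.00354). PGRP-SC2, an amidase gene, differed by −0.27 (limma adjusted p = 0.292), a sign that turned under hybridization control scaling.

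Among 26 other measured peptide genes only Drsl5, a drosomycin-like gene, passed, and none fell. It measured 10.96, 10.68 and 10.57 in wild type and 12.87, 12.87 and 12.94 in the mutants. The groups were far apart, with a rise of 2.15 (SE 0.11, 95% interval 1.87 to 2.43), or 4.45-fold, and limma adjusted p = 0.000422. The 5 other measured Drsl genes (Drsl1, Drsl2, Drsl3, Drsl4 and Drsl6) differed by −0.29 to 0.23 and did not pass. Genes of this family are similar in sequence, and cross-binding of the probes was not tested. The list median was −0.03, and only 4 of the 26 had a mean above the array median.

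Lysozyme genes, which encode enzymes that cut peptidoglycan at another bond, gave 2 falls among 3 measured members, against 4.25% of all genes. LysX was 7.34, 7.58 and 7.83 in wild type and 5.04, 5.10 and 5.43 in the mutants. It fell by 2.39 on the log2 scale (SE 0.16), or 5.24-fold, with limma adjusted p = 0.000879, to a level 0.33 units below the array median. The mutant signal of LysX may thus be mostly background, and the fold is then no exact measure of the fall. LysS fell by 0.46 (SE 0.10, limma adjusted p = 0.0434), close to the array median in wild type. This smaller call was lost without each array but wild-type replicate 1 (adjusted p of 0.0683 to 0.157), when the dimmest 40% of probe sets were dropped (0.0538) and under hybridization control scaling (0.548).

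The Imd pathway, which PGRP-LE activates and PGRP-LB and PGRP-LF restrain, had 4 rises and no fall among 21 measured genes, with a median of 0.02. The largest were in ben, an E2 ubiquitin-conjugating enzyme, by 1.34 (SE 0.19, limma adjusted p = 0.0111), and in CYLD, a deubiquitinase, by 0.90 (SE 0.17, adjusted p = 0.0281). Neither acts in this pathway alone. The other 2, named after their values were seen, were Rel and pirk. Rel, the NF-κB factor at the end of the pathway, was 8.31, 8.49 and 8.27 in wild type and 8.95, 8.92 and 8.90 in the mutants, a rise of 0.57 (SE 0.09, limma adjusted p = 0.0136). pirk encodes an inhibitor that acts on the receptors. It was 6.62, 6.27 and 6.26 in wild type and 6.99, 6.95 and 7.03 in the mutants, a rise of 0.61 (SE 0.12, limma adjusted p = 0.0295).

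Each of these 4 calls was lost in some of the fits without 1 array. Of 6 such fits, ben kept its call in 3, CYLD in 2, Rel in 3 and pirk in 1. The limma adjusted p reached 0.0586 for ben, 0.118 for CYLD, 0.0756 for Rel and 0.123 for pirk. In all 6 fits the differences stayed positive, from 1.13 to 1.47, 0.75 to 1.07, 0.52 to 0.63 and 0.55 to 0.72, in that order. With a trended and robust prior the Rel and pirk calls were also lost (adjusted p = 0.0700 and 0.0538). The adaptor gene imd differed by −0.06 (limma adjusted p = 0.856).

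The Toll pathway, to which PGRP-SA and PGRP-SD belong, had 2 rises and no fall among 34 measured genes and a median of −0.13. wbl, which encodes an endoplasmic reticulum protein needed for dorsal-ventral patterning of the egg, rose by 1.59 (SE 0.30, limma adjusted p = 0.0292). Spn27A, a serpin that inhibits melanization and restrains Toll activation in the early embryo, rose by 0.86 (SE 0.10, adjusted p = 0.00470). wbl lost its call without wild-type replicate 2 or any 1 mutant array (adjusted p of 0.0942 to 0.118). For the NF-κB gene dl the probe sets disagreed. The brighter one gave −0.22 (limma adjusted p = 0.513) and the other, picked out after its values were seen, rose by 1.38 (adjusted p = 0.0108), from a wild-type level 1.06 units below the array median.

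JAK/STAT genes gave 1 fall among 10, in the ligand gene upd1, which fell by 1.05 (SE 0.16, limma adjusted p = 0.0139; 0.0612 without mutant replicate 1, 0.0584 without mutant replicate 3 and 0.0593 with hybridization control scaling). Among 11 genes of melanization and opsonins, Tep3, a thioester protein gene, rose by 0.54 (SE 0.09, limma adjusted p = 0.0206). PPO3, a prophenoloxidase gene, fell by 0.40 (SE 0.09, limma adjusted p = 0.0480). The Tep3 and PPO3 levels lay below the array median in either genotype, and leaving out single arrays took the calls up to adjusted p of 0.101 and 0.173. The PPO3 call was also lost with median centring (0.0553), cyclic loess (0.0604) and hybridization control scaling (0.889).

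**Figure D4:**
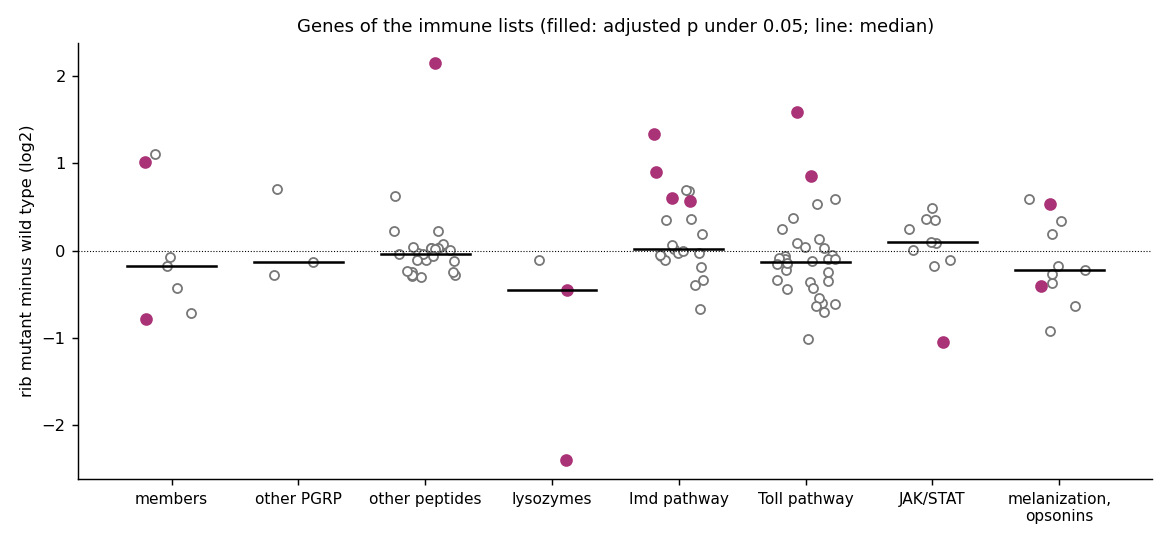
Mutant minus wild-type difference (log2; vertical axis) of each measured gene in the set and in the 7 immune lists, with the list median as a line. Filled points passed limma's adjusted p of 0.05. Most peptide genes lie near 0, and Drsl5 and LysX lie farthest out. The 4 filled Imd points are above 0, while the 21 Imd genes have a median of 0.02.

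Marker lists of tissues that make immune proteins were read beside these genes. Of 20 haemocyte (blood cell) genes 1 rose and none fell, with a mean level of 7.23 to 8.18 in wild type and 7.93 to 8.09 in the mutants. Of these 20 genes, 15 had a mean over all arrays above the array median. Hml, a defining haemocyte gene, lay below it at 5.14 in wild type and 5.26 in the mutants. Of 9 fat body genes 2 rose and none fell, with a mean level of 7.0 to 7.66 in wild type and 7.68 to 7.92 in the mutants. The fat body means were higher on every mutant array, but the highest wild-type mean of 7.66 was close to the lowest mutant mean of 7.68. The genes that rose, named after their values were seen, were FASN1 (2.28, limma adjusted p = 0.00775) and Desat1 (0.955, limma adjusted p = 0.00527). apolpp differed by 1.08 without passing (limma adjusted p = 0.249). The median difference of that list was 0.01. Of its 9 genes, 6 had a mean over all arrays above the array median. Fbp1 and Lsp2 were near the array median (5.58 and 5.65 in wild type, 5.59 and 5.36 in the mutants). Of 18 midgut genes 2 rose and 1 fell, with a mean level of 6.46 to 6.68 in wild type and 6.52 to 6.61 in the mutants. These similar means held large opposite differences, in Jon65Aiv (3.77), Jon65Aiii (2.88) and Jon44E (−5.04), named after their values were seen. The tracheal and salivary gland lists, for tissues that rib shapes, had 1 rise among 16 and 2 falls among 12. The part of any of these tissues in the immune gene differences was not tested.

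**Figure D5:**
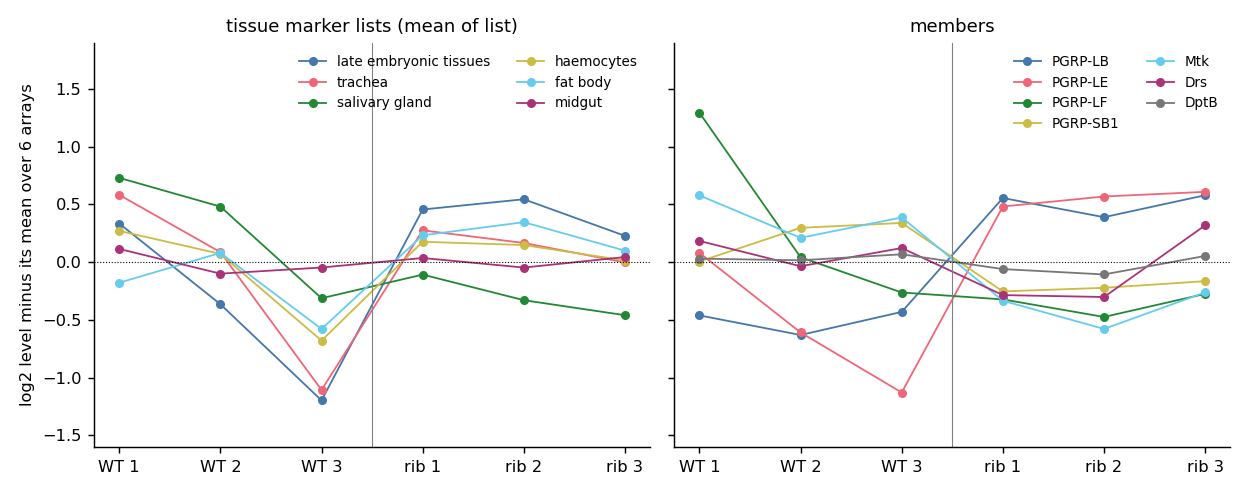
Left, mean log2 level of 6 tissue marker lists on each array, and right, level of the 7 genes, each minus its own mean over the 6 arrays; lines only join the values of 1 list or gene, since replicates have no order. The late tissue, tracheal, haemocyte and fat body lists and PGRP-LE were lowest in wild-type replicate 3, and PGRP-LF was highest in wild-type replicate 1.

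The genes whose values over the 6 arrays most resembled the genes that passed were found by Pearson correlation, as a description. For PGRP-LB they were Mtpbeta, a subunit of the mitochondrial enzyme complex of fatty acid oxidation, CG42394 and Fatp2, a fatty acid transport protein gene (r = 0.998, 0.998 and 0.997). CG42394 rose by 1.02 (limma adjusted p = 0.00309) and Fatp2 by 0.66 (adjusted p = 0.00982), while Mtpbeta differed by 0.30 (adjusted p = 0.0508). Fatp2 lay below the array median in either genotype. Its call was lost without mutant replicate 1 or 3 (limma adjusted p = 0.0601 and 0.0602). For Mtk they were CG5504, CG6465 and CLS, which encodes cardiolipin synthase (r = 0.994, 0.991 and 0.991), with falls of 0.83, 0.94 and 0.71. The calls of CG5504, CG6465 and CLS were lost in 5, 5 and 6 of 14 alternatives. In all, 396 genes had r above 0.95 with PGRP-LB and 135 with Mtk, as any gene that splits the genotypes in like manner will, so the order among them carries little weight.

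The genes that flank the set in the RefSeq gene table were also read. Of 20 neighbours 14 were measured and 1 passed, against 11.3% of all genes. This was dpr5, on one side of PGRP-LB, with a rise of 0.35 (SE 0.08, limma adjusted p = 0.0477; 0.0638 with the replicate block). Its call was lost in 7 of 13 alternatives, among them every fit without 1 array (adjusted p of 0.0599 to 0.189) but that without wild-type replicate 1. sals, on its other side, differed by 0.84 (SE 0.35, adjusted p = 0.196), and passed without wild-type replicate 1 (1.26, adjusted p = 0.00122) and with array weights (0.0110). PGRP-SB2, next to PGRP-SB1, differed by −0.13 (limma adjusted p = 0.475), and Dbp73D, on the other side, by −0.24. SRPK beside Mtk differed by 1.11 (SE 0.33, adjusted p = 0.0969), a sign opposite to that of Mtk, and passed in 3 of 14 alternatives, the replicate block among them (adjusted p = 0.0284). The neighbours of the other measured genes gave 0.11 for CG15602 (PGRP-LE), 0.11 for CG32040 (PGRP-LF), 0.61 and 0.10 for kst and Ythdc1 (Drs) and 0.01 for sano (DptB). The kst value rested on wild-type replicate 3, without which it was 0.01 (limma adjusted p = 0.985). Beside the genes not analysed, CG1572 (PGRP-SA) differed by 1.63, Ank2 and CG7506 (PGRP-SD) by 1.58 and −0.06, and CG43691 (AttC) by −0.11. None of these neighbours of measured or unmeasured genes passed in the fit as reported. Some passed in alternatives: Ank2 in 4 of 14, the replicate block among them (limma adjusted p = 0.0414), CG1572 in 2 (lowest adjusted p = 0.00386, without wild-type replicate 1), and CG32040 and Ythdc1 under hybridization control scaling (0.0258 and 0.0485).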

How the data were processed

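The authors deposited log2 values for each probe set, which per the submitters' processing notes were made by RMA with Partek (no version given). Per the labels' protocols, 100 ng of total RNA was amplified and labelled with biotin. Of 18952 probe sets, 183 controls were left out of the tests, leaving 18769. Gene symbols came from the platform annotation (13647 probe sets with 1 symbol, 402 with several, 4720 unnamed here).

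limma 3.58.1 in R 4.3.3 (lmFit, eBayes, two-sided) compared 3 mutant with 3 wild-type arrays. SEs and 95% intervals are moderated. The pipeline was tested on simulated data, with independent noise of the same SD in either genotype for each probe set. This setting held neither the wider wild-type spread nor the correlation of same-numbered arrays, so it does not check the calls under these. Set members and gene lists were chosen with earlier results of these data known. Named genes were all members, up to 2 called genes each way per immune list (or the 2 smallest p), the 3 most alike to a called member, and flanking genes. Deviations from group means correlated at r = 0.37, 0.57 and 0.39 between arrays of the same replicate number, so the numbers were taken to pair the samples. The fit as reported held genotype alone and did not use this pairing. The replicate block, which adds the replicate number to the fit, was run as an alternative. What a shared number stands for is not stated in the labels. Blocked values are given where they change a call. Detection calls, scan dates and sequences were not used here.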

Additional observations from a re-analysis of the deposited data

How the results depend on the processing

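PGRP-LB kept its direction and its call in all 14 alternatives, and the Mtk call was lost in 5 of 14. The number of probe sets called by limma was 1664 as reported, 2745 with the replicate block, 4371 with array weights, 3202 with hybridization control scaling (2917 higher, 285 lower), 594 without moderation of the variance, and 603 to 3674 when 1 array was left out. The lowest counts came on dropping a mutant array (621, 603 and 607) or wild-type replicate 2 (891), the highest on dropping wild-type replicate 1. Of the set, 2 genes passed as reported, 3 with the replicate block, 4 with a trended and robust prior, 4 with array weights, 1 without moderation, and 1 to 4 without 1 array. PGRP-LE and PGRP-SB1 were the genes gained with that prior, with array weights and on dropping wild-type replicate 1. Of the immune lists 12 genes passed as reported, 17 with the replicate block (9 higher, 8 lower), 30 with array weights (11 higher, 19 lower), 6 without moderation and 3 to 22 without 1 array (22 and 6 when wild-type replicate 1 or 2 was dropped, and 3, 4 and 3 when a mutant array was). Hybridization control scaling turned the sign of Drs (0.20), DptB (0.30), PGRP-SC2 (0.11), PGRP-SB2 (0.25), Dbp73D (0.14), CG7506 (0.32) and CG43691 (0.27), and under it 16 of the 17 calls of the immune lists were higher against 8 of 12 as reported. Array weights turned CG7506 (0.045) and sano (−0.46). Without 1 array CG7506 ranged from −0.15 to 0.023, sano from −0.54 to 0.31, kst from 0.013 to 0.93, Drs from −0.38 to −0.07 and CG15602 from −0.020 to 0.29. The alternatives for genes outside the set were added after seeing the data. Tissue list genes aside, the replicate block changed no call among the values printed other than those of PGRP-SB1, dpr5, SRPK and Ank2. The cause of these changes was not tested. All genes of the set but PGRP-LE lay near the array median in at least 1 genotype, which limits what the arrays can show.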
